A study of Mus musculus with 3 samples.

Results

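MHC class II antigen presentation genes are described here in induced cardiomyocytes (iCMs) and in the infarct fibroblasts they were made from. The members were chosen by name, and all 7 were found once each among the 54532 genes of the deposited tables: H2-Aa, H2-Ab1, H2-Eb1, H2-DMa, H2-DMb1, Cd74 and Ciita. In the GRCm38 coordinates of these tables, H2-DMa (ENSMUSG00000037649) lies on chromosome 17 from 34135182 to 34139101, H2-DMb1 (ENSMUSG00000079547) from 34153072 to 34160230, H2-Ab1 (ENSMUSG00000073421) from 34263209 to 34269418, H2-Aa (ENSMUSG00000036594) from 34282744 to 34287827 and H2-Eb1 (ENSMUSG00000060586) from 34305877 to 34316199. Cd74 (ENSMUSG00000024610) lies on chromosome 18 from 60803848 to 60812646 and Ciita (ENSMUSG00000022504) on chromosome 16 from 10480059 to 10528418. The counts are of whole genes, so exons and introns are not separated.

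MHC class II molecules are pairs of an alpha and a beta chain that show peptides from endocytosed protein to CD4+ T cells. Cd74, the invariant chain, fills the groove of a new pair and leads it to the endosome, where proteases cut Cd74 down and the H2-DM pair exchanges its last fragment for a peptide. Macrophages, dendritic cells and B cells carry these molecules. Other cells, endothelium among them, can be induced to make them by interferon gamma through Ciita, the coactivator that binds no DNA itself but acts on proteins bound at class II promoters.

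Promoter sequences of the classical chains are shown because H2-Aa and H2-Eb1 had the largest differences of the members from MICFs on the log2 scale used below, and H2-DMb1 is set beside them as a member with a small one. The RefSeq promoter windows (GRCm38.p6, 250 bases before and 50 after the annotated start) held 4 of the 7 members: H2-Aa, H2-Eb1, H2-DMb1 and H2-DMa. The stretches below run from 160 to 31 bases before the annotated start, 5′ to 3′ on the strand of the gene. They are chr17:34287854-34287983 on the minus strand for H2-Aa, and chr17:34305707-34305836 and chr17:34153031-34153160 on the plus strand for H2-Eb1 and H2-DMb1. Capitals mark GNAAC, letters found in the X box of many class II promoters, where RFX proteins bind, and ATTGG, the Y box, where NF-Y binds.
H2-Aa: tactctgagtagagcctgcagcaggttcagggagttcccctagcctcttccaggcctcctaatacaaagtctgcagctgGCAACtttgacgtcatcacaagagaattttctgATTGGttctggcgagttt
H2-Eb1: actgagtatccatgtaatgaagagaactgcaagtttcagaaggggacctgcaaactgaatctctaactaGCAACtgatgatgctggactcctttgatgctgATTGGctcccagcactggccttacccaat
H2-DMb1: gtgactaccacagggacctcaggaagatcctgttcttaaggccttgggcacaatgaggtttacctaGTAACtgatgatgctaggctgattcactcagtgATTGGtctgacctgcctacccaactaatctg

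The boxes lay at nearly the same spacing in the 3 genes, with 28 bases between them in H2-Aa and H2-DMb1 and 27 in H2-Eb1. Between ATTGG and the annotated start lay 43 bases in H2-Aa, 54 in H2-Eb1 and 56 in H2-DMb1. The pattern GNAAC, 20 to 40 bases, ATTGG, on either strand, was chosen after these windows were read, and it is found in 3.41% of all 32851 promoter windows of 300 bases. CCAAT or its reverse complement ATTGG alone, which lies within that pattern, is in 37.4% of them. TTCNNNGAA, the form of a STAT site, is in 8.30% of windows and in none of those of these 3 genes. The annotated starts of both H2-DMa windows lie 12350 and 9664 bases from the start in the deposited table, and these windows are not shown. A match is a description of the letters, not of binding.

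RNA was sequenced from 3 libraries, 1 for each condition, so differences between conditions have no check by replicates. All cells came from the hearts of adult Myh6-mCherry mice, 5 days after myocardial infarction, and were plated as fibroblasts (MICFs). The MICF library is of cells that got no virus and were dissociated after an equal time in culture, and the sort is described only for iCMs. GMTMS-iCMs received Gata4, Mef2c, Tbx5, Myocd and Sall4 and GMTMM-iCMs received Mesp1 in place of Sall4, from doxycycline-inducible lentiviruses, with doxycycline at 1 μg/ml in the inducing medium and 4 weeks of induction. They were sorted for mCherry, which the Myh6 promoter drives, and 5 sorted samples per cocktail were mixed before RNA extraction. The study's methods give an age of 8 weeks at infarction surgery. Whether MICFs received doxycycline, and whether the 5 samples came from separate mice, are not given in the sources used here. Virus, sorting and mixing all go with the condition and cannot be told apart from it. Below, 3 values given in a row without names run from MICFs over GMTMS-iCMs to the library labelled GMTMM.

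The library totals were between 10624118 and 11904484 counts. The label GMTMM is at odds with the delivered factors, since Sall4 had 0, 1190 and 1060 counts and Mesp1 had 0 in all 3 libraries. Every direction drawn from that library below carries this limit. The labelled cell types were also looked at. The 8 cardiomyocyte markers summed to 1.29, 1318 and 489 FPKM (counts scaled by gene length and library size). The 8 fibroblast markers summed to 1383, 198 and 2580 FPKM, and the 16 macrophage markers to 10563, 21802 and 10258 FPKM, of which Lyz2 alone had 6135, 11353 and 5495. In CPM, counts scaled to the library total alone, the macrophage sums were 21022, 32368 and 16034 and the fibroblast sums 14282, 1459 and 21565, so the order of these lists in the library labelled GMTMM depends on the scale. In such bulk RNA, fewer cells of a type and less RNA per cell cannot be told apart.

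Class II genes were more abundant in GMTMS-iCMs than in MICFs, with the peptide-binding chains and Cd74 5.69-fold to 7.00-fold higher in FPKM, the H2-DM chains 2.06-fold and 2.70-fold higher, and Ciita 1.45-fold higher. The library labelled GMTMM lay between the others for the binding chains and Cd74, 2.00-fold to 2.50-fold above MICFs. In FPKM its H2-DM chains were within counting error of MICFs and its Ciita was lower. In CPM its H2-DMb1 was 24.3 beside 28.7 in MICFs, and its H2-DMa 18.9 beside 19.5. Folds are ratios of the deposited FPKM, each with the 95% Clopper-Pearson interval of its counts, which covers counting error only. The library sizes behind these FPKM were 1.21, 0.874 and 0.981 times the total counts, so folds over MICFs are smaller in CPM. From MICFs to GMTMS-iCMs, Cd74 went from 226 to 1139 CPM, H2-Ab1 from 63.9 to 262 and H2-DMb1 from 28.7 to 42.7.

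The call of higher or lower is made on a second scale, that of the study: FPKM, quantile-normalized over the 3 libraries, then log2 (value + 1), with a difference over 1 called. It can differ from the log2 of the fold, since it sets the distribution of values equal in all libraries and the added 1 shrinks low genes. GMTMS-iCMs were higher than MICFs in 5 of the 7 members and lower in none, beside 3.13% of all 54532 genes called higher and 2.72% called lower. Over the 13919 genes whose FPKM reached 1 in some library, which include all members, these shares were 12.1% and 10.7%. The median difference of the members was 1.94, beside -0.04 over those 13919 genes. In the library labelled GMTMM none of the members was called in either direction against MICFs, beside 2.12% of all genes higher and 1.30% lower, or 8.31% and 5.09% of the 13919 genes. Its median difference was 0.56, beside -0.08. Between GMTMS-iCMs and the library labelled GMTMM, 5 members were higher in the former and none was lower, with a median of 1.24 beside 0.10 over the 13919 genes. There the shares called were 2.33% higher and 2.84% lower over all genes, and 9.01% and 11.1% over the 13919.

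H2-Aa is the alpha chain of I-A, the classical class II molecule that pairs it with H2-Ab1. It had 586, 2621 and 1126 counts, or 21.7, 151 and 51.4 FPKM. GMTMS-iCMs were the highest, 6.93-fold above MICFs (6.33 to 7.59) and 2.93-fold above the library labelled GMTMM (2.73 to 3.14), and that library was 2.37-fold above MICFs (2.14 to 2.62). On the log2 scale its difference between GMTMS-iCMs and MICFs was 2.31, which was the largest of the members on that scale.

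H2-Ab1, the beta chain of I-A, had 758, 2786 and 1232 counts, or 32.2, 183 and 64.4 FPKM. The order of the libraries was that of its partner. GMTMS-iCMs were 5.69-fold above MICFs (5.25 to 6.18) and the library labelled GMTMM was 2.00-fold above them (1.83 to 2.19), with log2 differences of 1.95 and 0.56. The ratio of H2-Aa to H2-Ab1 FPKM, a comparison of levels per length within a library, was 0.675 (0.605 to 0.753), 0.822 (0.779 to 0.867) and 0.798 (0.736 to 0.866). H2-Aa was below its partner in each library, and further below it in MICFs than in GMTMS-iCMs, where the intervals do not overlap.

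H2-Eb1, the beta chain of I-E, had 474, 1979 and 961 counts, or 27.8, 180 and 69.5 FPKM. GMTMS-iCMs were 6.47-fold above MICFs (5.85 to 7.17) and the library labelled GMTMM 2.50-fold (2.23 to 2.79), and the log2 differences were 2.16 and 0.91. The alpha chain of I-E is annotated in the tables only as a pseudogene, H2-Ea-ps, as in the C57BL/6J reference strain, and the strain of these mice is not given in the sources used here. It had 0, 8 and 0 counts, so the beta chain was counted with almost no RNA of an I-E alpha chain.

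Cd74 was the most abundant member in every library, with 2677, 12100 and 5264 counts. Its FPKM were 132, 924 and 320, which placed it at rank 220, 39 and 124 of all genes. GMTMS-iCMs were 7.00-fold above MICFs (6.71 to 7.30) and 2.89-fold above the library labelled GMTMM (2.80 to 2.99), and that library was 2.42-fold above MICFs (2.31 to 2.54). Cd74 made up 54.9%, 61.7% and 59.9% of the summed FPKM of the 7 members. The ratio of Cd74 to H2-Aa FPKM was 6.07 (5.55 to 6.65), 6.14 (5.88 to 6.40) and 6.21 (5.82 to 6.63), and these overlap. To H2-Ab1 it was 4.10, 5.04 and 4.96, and the value in MICFs (3.78 to 4.45) was below that in GMTMS-iCMs (4.84 to 5.26).

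**Figure D1:**
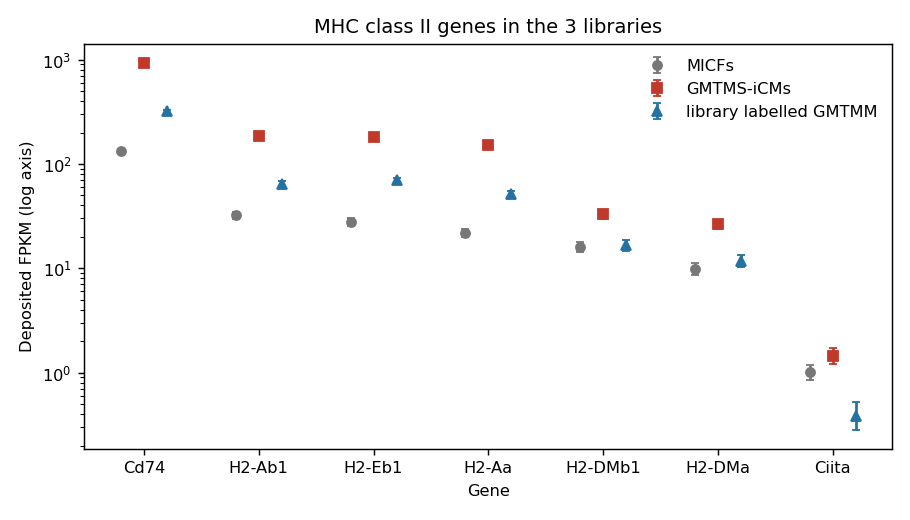
Deposited FPKM of the 7 class II genes on a log axis, 1 point per library, with 95% Clopper-Pearson intervals of the counts as error bars. GMTMS-iCMs (squares) are highest for every gene, Cd74 reaches 924 FPKM there, and the library labelled GMTMM (triangles) lies above MICFs (circles) for Cd74 and the 3 binding chains but below them for Ciita.

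H2-DMa and H2-DMb1 form the H2-DM pair, which edits the peptides loaded onto class II molecules. H2-DMa had 231, 403 and 225 counts, or 9.78, 26.4 and 11.7 FPKM. It was 2.70-fold higher in GMTMS-iCMs than in MICFs (2.29 to 3.19), and had a log2 difference of 1.17. The library labelled GMTMM was 1.20-fold above MICFs, and the interval of 0.994 to 1.45 includes equal levels. In the GENCODE M21 annotation 10.4% of the exon bases of H2-DMa also lie in exons of Brd2, so a part of its counts is uncertain.

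H2-DMb1 had 341, 454 and 289 counts, or 15.96, 32.9 and 16.7 FPKM. GMTMS-iCMs were 2.06-fold above MICFs (1.79 to 2.38), and the log2 difference of 0.70 was below the call. Between the library labelled GMTMM and MICFs the fold in FPKM was 1.04 (0.889 to 1.22), an interval that includes equal levels. In CPM that library was lower, at 24.3 beside 28.7. Its near copy H2-DMb2 holds 27.2% of its 50-base words, and had 2, 20 and 10 counts, so reads could be split between these genes.

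The H2-DM chains differed less between libraries than the molecules they act on. The ratio of H2-DMa to H2-Aa FPKM was 0.450 (0.385 to 0.525), 0.176 (0.158 to 0.195) and 0.228 (0.197 to 0.264). That of H2-DMb1 to H2-Ab1 was 0.496 (0.435 to 0.564), 0.180 (0.162 to 0.198) and 0.259 (0.227 to 0.294). Both ratios were highest in MICFs and lowest in GMTMS-iCMs, with no overlap of the intervals for H2-DMb1 to H2-Ab1 and, from the library labelled GMTMM to GMTMS-iCMs, a narrow gap for H2-DMa to H2-Aa.

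Ciita, the transactivator of class II genes, was the least abundant member, with 138, 129 and 43 counts. These are 1.01, 1.46 and 0.386 FPKM. GMTMS-iCMs were 1.45-fold above MICFs (1.13 to 1.85) in FPKM but level with them in CPM, at 12.1 and 11.6. The library labelled GMTMM was 2.61-fold below MICFs (1.84 to 3.76) while its H2-Aa, H2-Ab1, H2-Eb1 and Cd74 were above them. The log2 differences of 0.40 and -0.51 are both within 1, on a scale where an FPKM near 1 is as small as the added 1.

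Per unit of Ciita, class II RNA was thus higher in both transduced libraries. The ratio of Cd74 to Ciita FPKM was 131 (111 to 157), 634 (533 to 760) and 828 (614 to 1145). For H2-Aa to Ciita it was 21.6 (17.9 to 26.2), 103 (86.6 to 124) and 133 (98.3 to 185). The transduced libraries overlap each other in both ratios, and neither overlaps MICFs.

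**Figure D2:**
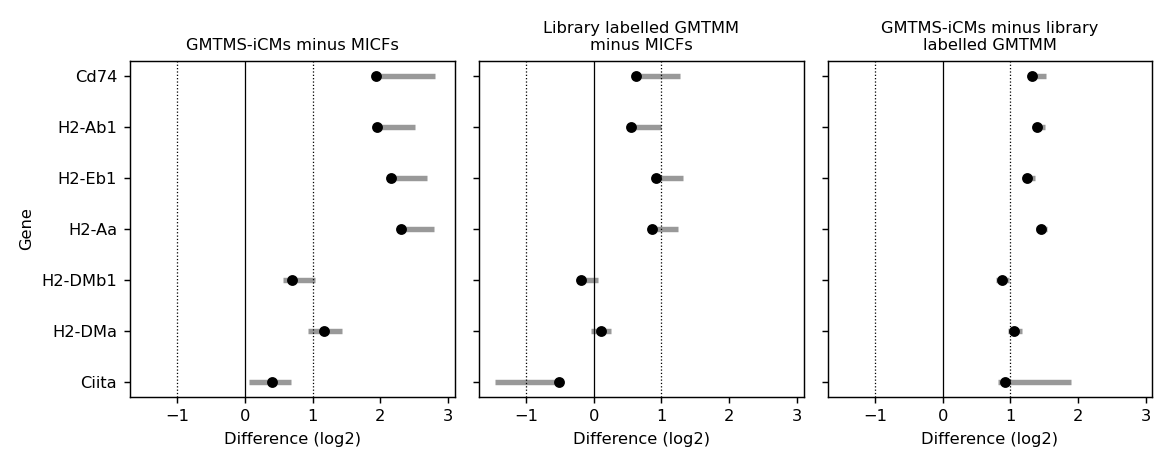
Difference of each class II gene between libraries on the log2 scale (points), with the range over the main scale and 7 alternative scales as grey bars and dotted lines at a difference of 1 in either direction. H2-Aa, H2-Ab1, H2-Eb1 and Cd74 stay above 1 on every scale between GMTMS-iCMs and MICFs and between GMTMS-iCMs and the library labelled GMTMM, while between the library labelled GMTMM and MICFs they cross 1 and Ciita runs from -1.45 to -0.51.

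The direction of the binding chains and Cd74 did not depend on the scale, but the call in the library labelled GMTMM did. Against MICFs, H2-Aa, H2-Eb1 and Cd74 passed 1 there with no quantile normalization, and its H2-DMb1, at -0.18, had the other sign in 3 of the 7 alternatives. Ciita was below -1 in that library in 4 of them. H2-DMa in GMTMS-iCMs against MICFs fell under 1 only with CPM on library totals, at 0.93, as it did against the library labelled GMTMM, at 0.97. H2-DMb1 in GMTMS-iCMs against MICFs passed 1 with DESeq2 size factors, at 1.04. Ciita in GMTMS-iCMs against the library labelled GMTMM, at 0.92, passed 1 in 5 of the 7 alternatives, up to 1.89.

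Markers of cells that carry class II molecules were compared as lists. All 16 macrophage markers were counted in each library, and 4 of them were higher in GMTMS-iCMs than in MICFs: Ptprc (log2 difference 1.23), Cd14 (3.07), Itgam (1.07) and Spi1 (1.30). The list median was 0.27. In the library labelled GMTMM the median was -0.62, with Cd14, a co-receptor for lipopolysaccharide, higher (2.15) and, among others, Csf1r (-1.15), Mrc1 (-1.08) and Cx3cr1 (-2.11) lower. In FPKM the macrophage sum was highest in GMTMS-iCMs, as the class II sum was, while the sum in the library labelled GMTMM was level with that in MICFs.

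**Figure D3:**
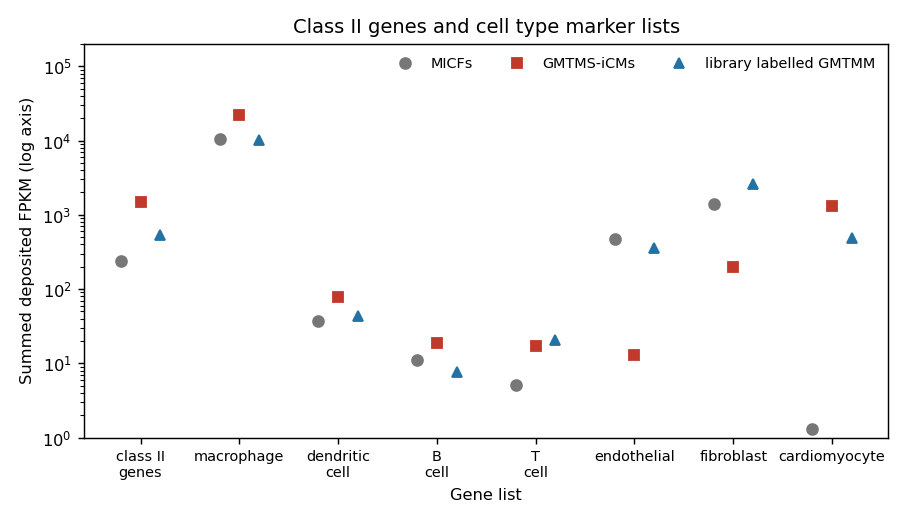
Summed deposited FPKM of the 7 class II genes and of each cell type marker list on a log axis, 1 point per library. The class II sum goes from 240 in MICFs to 534 in the library labelled GMTMM and 1499 in GMTMS-iCMs, the macrophage sum is 21802 in GMTMS-iCMs beside 10563 and 10258 in the others, and the endothelial sum is lowest in GMTMS-iCMs.

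The summed FPKM of the class II genes, 240, 1499 and 534, was 2.28%, 6.87% and 5.20% of that of the macrophage markers. Against that sum the class II genes were thus 3.02-fold and 2.29-fold above MICFs. Folds of single markers over MICFs were 1.85 and 0.896 for Lyz2, 3.76 and 1.81 for Spi1 and 14.2 and 6.44 for Cd14. Whether there is a class II excess, and its size, therefore depends on the marker. Against Cd14 alone there was none, since no member reached the folds of Cd14 in either library. With only Ptprc, Cd68, Csf1r and Adgre1 as markers the shares were 24.0%, 67.8% and 60.4%. Taken singly against the 16 markers, H2-Aa was 3.36-fold and 2.44-fold above MICFs and Cd74 3.39-fold and 2.49-fold. H2-DMb1 was level with the markers, at 0.999-fold and 1.08-fold, and Ciita was below them at 0.702-fold and 0.395-fold. The part of macrophage content or macrophage state in these differences was not tested.

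**Figure D4:**
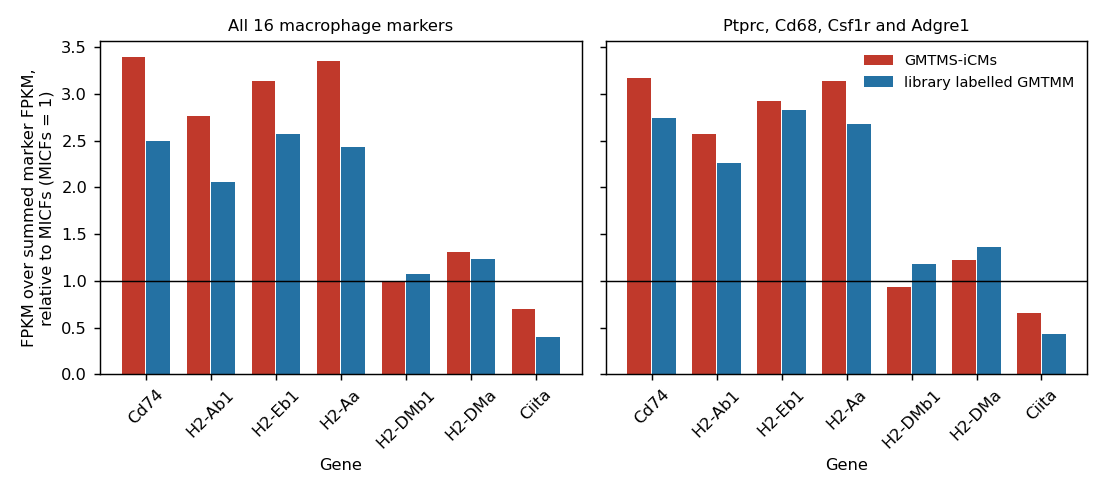
FPKM of each class II gene divided by the summed FPKM of macrophage markers and set to 1 in MICFs (line), as bars for GMTMS-iCMs (red) and the library labelled GMTMM (blue), with all 16 markers (left) or 4 of them (right). Cd74 and the binding chains are above 2 in both libraries and panels, the H2-DM chains lie near 1 and Ciita is below 1.

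Markers of other presenting cells were at lower levels. The 11 dendritic cell markers summed to 36.8, 77.5 and 42.9 FPKM, most of it from Irf8, which macrophages also express. Of the 11, only Itgax (log2 difference 1.74) and Ccr7 (1.41) were called higher in GMTMS-iCMs. Ccr7 was also called in the library labelled GMTMM (1.27), against 0 counts in MICFs. Zbtb46 was lower in GMTMS-iCMs, at 0.573-fold of MICFs (0.396 to 0.816), with 119, 44 and 196 counts. Clec9a had 24, 15 and 19 counts. Flt3, a receptor of dendritic cells, had 9, 1 and 37 counts, Xcr1 had 4, 17 and 33, and Batf3 had 19, 24 and 41. In the library labelled GMTMM, folds over MICFs were 2.03 for Zbtb46 (1.61 to 2.57) and 5.06 for Flt3 (2.40 to 11.9). They were 10.2 for Xcr1 (3.61 to 39.5) and 2.66 for Batf3 (1.51 to 4.85), and none of these genes was called there. Irf4 and Clec9a lay there at 0.870-fold (0.634 to 1.19) and 0.975-fold (0.505 to 1.86). Of the 7 B cell markers, Pax5 and Blk had 0 counts in MICFs and GMTMS-iCMs and 1 to 3 in the library labelled GMTMM. Cd79b, a part of the B cell receptor, had 0, 7 and 23 counts, and its log2 difference of 1.24 between the library labelled GMTMM and MICFs was called. Its partner Cd79a had 1, 3 and 8. Cd22 had 10.9, 18.1 and 5.65 FPKM of B cell sums of 11.0, 18.9 and 7.69. The 9 endothelial markers summed to 480, 13.0 and 354 FPKM and all were lower in GMTMS-iCMs than in MICFs, the library pair in which the class II genes differed most. Their part in the class II differences was not tested.

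Most markers of T cells, which class II molecules address, were highest in the library labelled GMTMM. Cd3e had 4, 4 and 57 counts, Cd8a had 1, 1 and 63, and Trac, the constant part of the T cell receptor alpha chain, had 6, 8 and 77. Lck, a kinase of the T cell receptor, had 10, 64 and 111 counts. Of the 7 T cell markers, 6 were called higher than MICFs there and 2 in GMTMS-iCMs, Lck (1.52) and Cd4 (1.48). Of the 13919 genes, 8.31% were called higher in the library labelled GMTMM and 12.1% in GMTMS-iCMs. Cd4, the co-receptor that binds class II molecules, had 241, 508 and 229 counts, and macrophages can express it. The part of dendritic, B or T cells in the class II differences was not tested. Ifng, the inducer of Ciita that T cells secrete, had 0 counts in MICFs and GMTMS-iCMs, which allows up to 3, and 12 in the library labelled GMTMM.

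The other class II chains had few counts. H2-Ob, a chain of the H2-O inhibitor of H2-DM, had 26, 58 and 28 counts, 3.46-fold higher in GMTMS-iCMs than in MICFs (2.14 to 5.72). Its partner H2-Oa had 2, 8 and 1 counts. H2-DMb2 was 15.5-fold above MICFs in GMTMS-iCMs, with a counting interval of 3.76 to 137. Of the 5 such chains in the tables, H2-Ea-ps, H2-DMb2 and H2-Ob were called higher in GMTMS-iCMs, and none was called in the library labelled GMTMM. Over all genes, 3.13% and 2.12% were called higher in these libraries.

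The 5 members on chromosome 17 lie within 181 kb, between H2-DMa and H2-Eb1, and share that stretch with 10 other genes of the tables. Of these, 6 reached an FPKM of 1 in some library. Tap1 was higher in GMTMS-iCMs than in MICFs (log2 difference 1.73), beside 12.1% of the 13919 genes called higher there. H2-DMb2 and H2-Ob were also called, but they reached an FPKM of 1 in GMTMS-iCMs alone, so the filter itself favoured these calls. Tap1, Tap2, Psmb8 and Psmb9 serve class I presentation. Tap1 was also higher in the library labelled GMTMM (1.65), and between the transduced libraries it differed by 0.08, where H2-Aa differed by 1.45. Psmb8 and Tap2 were at -0.22 and -0.32 in that comparison. The end of Psmb9 and the start of Tap1 overlap in the tables, so reads there could count for either.

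The 8 genes for proteases and a reductase that prepare peptides or cut Cd74 summed to 3777, 7767 and 3875 FPKM. Ctss, the cathepsin that trims Cd74 in macrophages and dendritic cells, had 549, 1494 and 603 FPKM. It was 2.72-fold higher in GMTMS-iCMs than in MICFs (2.66 to 2.79), with a log2 difference of 0.65. Ifi30, the lysosomal thiol reductase, was 2.77-fold higher (2.62 to 2.92) and Lgmn 2.29-fold (2.24 to 2.34). Of the 8 genes, only Sppl2a, the protease that clears the last membrane stub of Cd74, was called higher (1.11), and none was called in the library labelled GMTMM, where the list median was -0.35. A call of 1 in 8 is near the 12.1% of the 13919 genes called higher in GMTMS-iCMs.

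Genes that set the lifetime of class II molecules at the surface were compared next. March1, the ubiquitin ligase that marks class II molecules and Cd86 for removal, had 10.1, 28.7 and 7.70 FPKM, a call of higher in GMTMS-iCMs (1.23) and none in the library labelled GMTMM (-0.45). Cd83, which opposes March1, had 47.8, 455 and 191 FPKM. Cd83 was 9.52-fold above MICFs in GMTMS-iCMs (9.05 to 10.0) and 3.99-fold in the library labelled GMTMM (3.78 to 4.21). The ratio of Cd83 to March1 FPKM was 4.75 (4.40 to 5.14), 15.9 (15.1 to 16.7) and 24.7 (22.8 to 26.9). March8, a broadly expressed relative of March1, was called in neither library (-0.29 and -0.75).

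Genes for proteins that bind class II promoters had 1 call in GMTMS-iCMs, 1 of 7, near the 12.1% of the 13919 genes called higher there. Of the 7 genes for RFX, NF-Y and CREB proteins, Rfxank was called higher in GMTMS-iCMs than in MICFs (1.25, from 1.66 to 4.91 FPKM), and none was called in the library labelled GMTMM. Rfx5 had 2.58, 2.55 and 2.74 FPKM, with folds over MICFs of 0.987 (0.786 to 1.24) and 1.06 (0.864 to 1.31). The list medians were 0.31 and 0.08.

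Of the 9 genes of the interferon gamma axis, Irf1, Jak2 and Socs1 were called higher than in MICFs in both transduced libraries. Irf1, a transcription factor that acts on Ciita, had 699, 6456 and 8272 counts, 14.3-fold above MICFs in GMTMS-iCMs (13.2 to 15.5) and 14.6-fold in the library labelled GMTMM (13.5 to 15.8). The fold of Irf1 from the library labelled GMTMM to GMTMS-iCMs was 0.982 (0.950 to 1.01). That of Ciita, with 43 counts in the library labelled GMTMM, was 3.77 (2.65 to 5.46). A link between Irf1 and Ciita in these libraries was not tested. Socs1, the feedback inhibitor of Jak signalling, had 33, 293 and 687 counts. The receptor chains Ifngr1 and Ifngr2 were called in neither.

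Costimulation is the other signal that a T cell needs beside class II and peptide. Of the 6 genes of this list, Cd80, Cd86, Cd40 and Cd274 were called higher in both transduced libraries, with list medians of 2.99 and 2.01. Cd86 had 383, 6394 and 2730 counts, 25.9-fold (23.3 to 28.7) and 8.78-fold (7.89 to 9.80) above MICFs. Cd274, the inhibitory ligand PD-L1, had 324, 11833 and 4885 counts, 56.6-fold (50.7 to 63.4) and 18.6-fold (16.6 to 20.8) above them. In both genes the order GMTMS-iCMs, library labelled GMTMM, MICFs was the one seen for the binding chains.

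**Figure D5:**
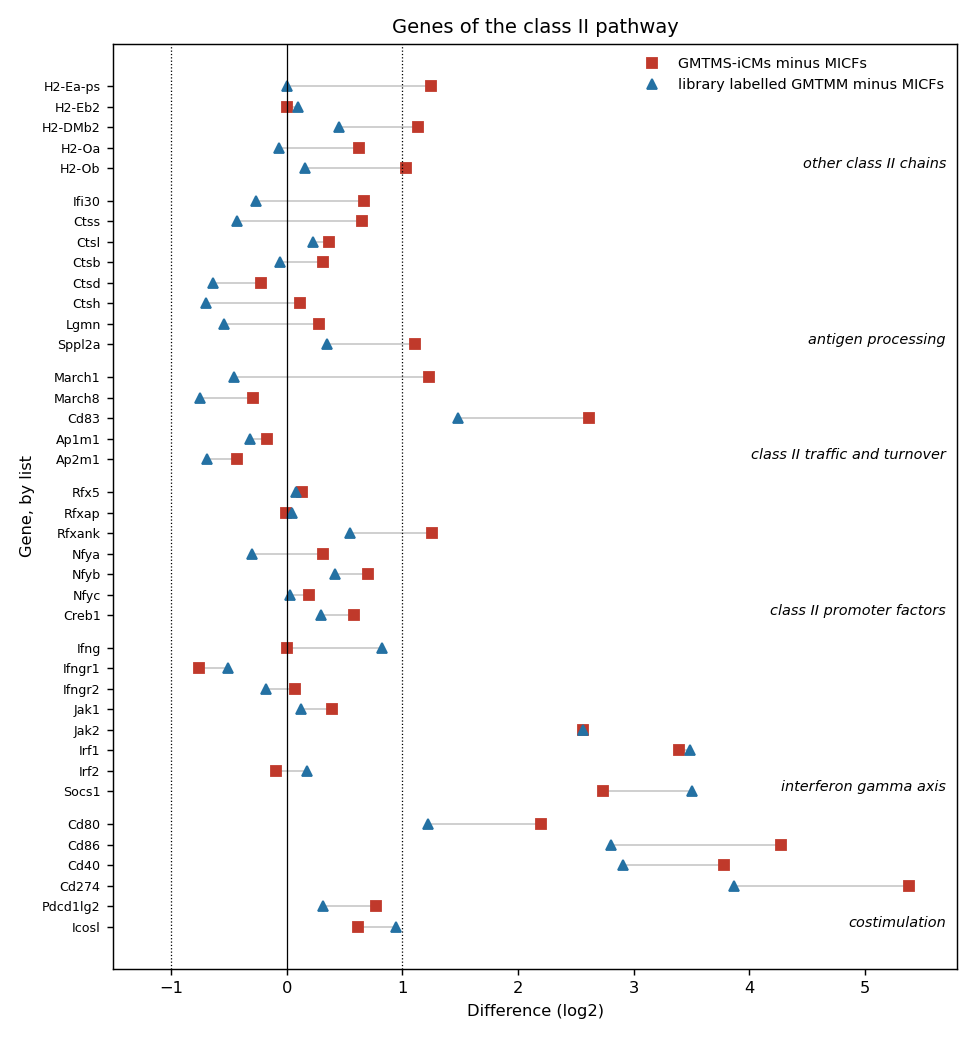
Differences from MICFs on the log2 scale for the pathway genes reported here, in GMTMS-iCMs (squares) and the library labelled GMTMM (triangles), grouped by list, with dotted lines at a difference of 1 in either direction. Cd274, Cd86, Cd40 and Cd80, together with Irf1, Jak2, Socs1 and Cd83, lie beyond 1 in both libraries, and the promoter factors lie within 1 except for Rfxank in GMTMS-iCMs.

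The genes nearest to the members in pattern were looked for among the 10737 other genes with at least 100 counts in their highest library, by the distance of their 2 differences from MICFs to the member medians of 1.94 and 0.56. The nearest were AC166110.3, Rnf213, Rbm20 and Adam8, at distances from 0.042 to 0.080. Adam8, a membrane protease, had 37.4, 205 and 76.7 FPKM, and Rnf213 had 17.4, 94.3 and 32.3. Rbm20, a splicing factor of heart muscle, had 0, 165 and 45 counts, or 0, 2.62 and 0.567 FPKM. AC166110.3 had 0.150, 3.29 and 0.701 FPKM. At such low FPKM the added 1 shrinks differences, so Rbm20 and AC166110.3 are like the members on the log2 scale but not in fold. The likeness rests on 3 libraries, and 48 genes lay within a distance of 0.25.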

How the data were processed

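Counts and FPKM per gene were deposited for 3 mouse libraries, 1 per condition. The authors deposited raw counts without normalization, and FPKM whose library sizes were, for every gene of a library, 1.21, 0.874 and 0.981 times the total counts of MICFs, of GMTMS-iCMs and of the library labelled GMTMM. The submitters' processing notes name HISAT2 2.0.5 and mm9, whereas 99.9% of the 54495 gene identifiers matched in GENCODE M21 (GRCm38) have their start or end within 1000 bases of the deposited one. How genes were counted, with which strand setting and with what use of multiply matching reads, is not given in the sources used here. The column cMF was taken as MICFs because the other columns name the cocktails.

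FPKM were quantile-normalized over the 3 libraries with ties averaged and log2-transformed with a pseudocount of 1, and a difference over 1 was called, as in the clustering filter of the study. Fold intervals are Clopper-Pearson at 95%, and 3 counts were the floor. The members and lists were chosen with earlier results of these data known. The genes named are the members, genes of the lists, the nearest in pattern and, chosen after their values were seen, those between H2-DMa and H2-Eb1. A few genes that these rules name are not reported here. Shared sequence was measured on GENCODE M21 exons and by 50-base words, taken from each longest transcript. The alternatives were no quantile normalization, log2 before it, a pseudocount of 0.1, only genes with FPKM of at least 1, TMM log2 CPM with a prior count of 2, DESeq2 size factors, log2 CPM on library totals, a difference over 2 and other macrophage markers. The steps were tested on simulated counts with a shared expression profile and library totals as sizes. That test does not cover the deposited FPKM sizes or differences in cell content. Scaling used edgeR 4.0.16 and DESeq2 1.42.0 in R 4.3.3. All else ran in Python 3.11.15 with SciPy 1.17.1, pandas 2.3.3, numpy 2.4.6 and, for plots, matplotlib 3.10.9.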

Additional observations from a re-analysis of the deposited data

How the results depend on the processing

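No paired analysis was possible because there is only 1 library for each condition, and for the same reason no library was left out. None of the called member differences changed sign under the 7 other scales. Of the values of single members under these alternatives, 99 stayed within their counting intervals and 48 did not. The cause of the moves below was not tested.

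For GMTMS-iCMs against MICFs the median difference of the members (1.94) was 2.47 without quantile normalization, 2.42 with TMM, 2.51 with DESeq2 size factors and 2.02 with log2 CPM on library totals, and 2 members passed a difference over 2. For the library labelled GMTMM against MICFs the median (0.56) was 0.98 without quantile normalization, 0.97 under TMM and 1.00 under DESeq2 size factors, and 3, 3 and 4 members were higher by over 1 in place of 0. In that comparison 1 member, Ciita, was lower by over 1 with a pseudocount of 0.1, with TMM, with DESeq2 size factors and with log2 CPM on library totals. For GMTMS-iCMs against the library labelled GMTMM the median (1.24) was 1.36, 1.45 and 1.51 in the same order of the first 3 scales, and 0 members passed a difference over 2.

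The class II sum as a percent of the macrophage sum (2.28, 6.87 and 5.20, in the order of the libraries used above) was 24.0, 67.8 and 60.4 with 4 markers, 2.09, 5.95 and 4.79 in CPM, and 5.43, 14.3 and 11.2 without Lyz2, the last chosen after seeing the data. The log2 CPM on library totals shifted the median of the 13919 genes to -0.37 and -0.22 in the 2 comparisons with MICFs, where it was -0.04 and -0.08. Ciita, with 43 counts in its lowest library, is the member that depth limits most.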
